A study of Arabidopsis thaliana with 12 samples.

Results

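The 9 genes described here encode the chaperonins of both energy organelles of the leaf cell: the chloroplast members CPN60A1, CPN60B1, CPN60B2, CPN60B3 and CPN20, and the mitochondrial members HSP60, HSP60-2, HSP60-3A and CPN10. They were chosen by locus from the 32833 loci of the deposited table, with earlier results of these data known. All 9 passed the filter for testing, a mean normalised count of at least 10 over the 12 libraries. Chaperonins are barrel-shaped complexes that take up newly imported or unfolded proteins and fold them in a closed cavity with the use of ATP. In chloroplasts the barrel is built of alpha and beta subunits, it is closed by a co-chaperonin lid, and it is best known for folding the large subunit of Rubisco. In mitochondria the barrel is built of HSP60 subunits and closed by CPN10.

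Leaves of wild-type Arabidopsis thaliana Col-0 were profiled by poly(A) RNA sequencing at a plant age of 30 days. Growth was in peat pellets at 23 °C under a daily light period of 12 h and a light intensity of 50 µmol m-2 s-1. The plants were then given high light and heat together (600 µmol m-2 s-1 and 42 °C, the combination), heat alone (42 °C), high light alone (600 µmol m-2 s-1), each for 7 h, or were left as controls. Each of the 4 groups had 3 libraries. The design asks how leaves respond to each stress and whether the response to both together differs from the single responses.

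Recovered reads numbered 29814116 to 36938786 per library. The authors' size factors were 0.5353 to 0.6048 in the combination, 1.048 to 1.527 in heat, 1.129 to 1.308 in high light and 1.171 to 1.269 in control, so at a like number of reads the normalised counts of the combination are higher. With scaling by library totals in place of these factors, the median of all genes in the combination against control moved by -0.94 on the log2 scale, and the changes below are relative to the deposited scaling. Genome-wide, Pearson's r of log2(normalised count + 1) between libraries of a group was lowest in heat, at 0.936. Whether a group's libraries are from different plants is not stated in the labels; p-values therefore measure the spread between libraries, which may be technical. Of the markers, the 4 leaf mesophyll genes RBCS1A, RCA, CA1 and LHCB1.3 had group means of 50432 to 842739 normalised counts. RCA averaged 537286 in the combination and 99989 in control, CA1 148593 and 50432, and RBCS1A 321931 and 406714. Over the 4 genes, log2 changes against control ran from -0.33 to 2.41 in the combination, -1.58 to 0.71 in heat and -2.6 to 1.14 in high light. These markers thus moved with the treatments themselves. Against control 2 mesophyll genes were called higher and 0 lower in the combination, 0 and 2 in heat, 1 and 1 in high light. The 3 guard cell genes gave 0 and 2, 0 and 2, and 1 and 0 in this order. For the 3 phloem genes the counts were 1 and 1, 1 and 1, and 0 and 1. For the 3 epidermis genes they were 0 and 1, 0 and 2, and 0 and 1. Over all tested genes the shares were 29.8% and 29.7%, 24.6% and 24.8%, and 18.1% and 16.6%. Of the root genes, EXPA7 was at 0 in all 12 libraries, PYK10 averaged 342 in the combination and 1312 in control, and CASP1 averaged 57.9 in heat and 6.39 in control. The flower gene AG averaged 25.8 in the combination and 6.12 in control and was called higher, while the flower genes AP3 and PI and the seed genes CRA1 and OLEO1 stayed under 5 in every group mean. The part of other cells in the results below was not tested. In bulk leaf tissue, a change in the number of cells of a type and a change of RNA per cell cannot be told apart.

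Summed over each organelle's members, chaperonin transcripts were more abundant in each stress than in control, and the mitochondrial sum stood highest in the combination. Summed over the 5 chloroplast members, levels were 3.73 ± 1.06 times the control mean in the combination, 2.81 ± 0.746 times in heat and 3.02 ± 0.343 times in high light (SD, n = 3 each). Summed over the 4 mitochondrial members they were 17.2 ± 7.53 times, 5.04 ± 1.11 times and 4.3 ± 0.478 times the control mean in the same order. As shares of all reads, which do not depend on the size factors, the chloroplast members took 0.431% ± 0.0753 in the combination, 0.599% ± 0.123 in heat, 0.662% ± 0.0827 in high light and 0.227% ± 0.00645 in control. The mitochondrial members took 0.199% ± 0.0635, 0.108% ± 0.00844, 0.0956% ± 0.0107 and 0.0232% ± 0.00349 in those groups. By reads, the combination thus stood at 1.89 and 8.61 times control for the chloroplast and mitochondrial sets, against 3.73 and 17.2 times by normalised counts. Among the stresses, the chloroplast mean was highest in the combination by normalised counts but lowest there by reads.

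In limma, with Benjamini-Hochberg adjustment over all 19309 genes and a threshold of 0.05, 8 of the 9 members were higher in the combination than in control and 0 were lower, while 29.8% of all tested genes were called higher and 29.7% lower. In heat against control 8 members were higher and 0 lower (24.6% and 24.8% of all genes), and in high light against control 9 were higher and 0 lower (18.1% and 16.6%). Their median log2 change was 1.92 in the combination, 1.69 in heat and 1.67 in high light, beside medians of -0.02, 0 and -0.03 over all tested genes. These 3 comparisons share the control libraries, and the members were chosen with earlier results of these data known. CPN60B1 is the member outside the calls in heat and in the combination.

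**Figure D1:**
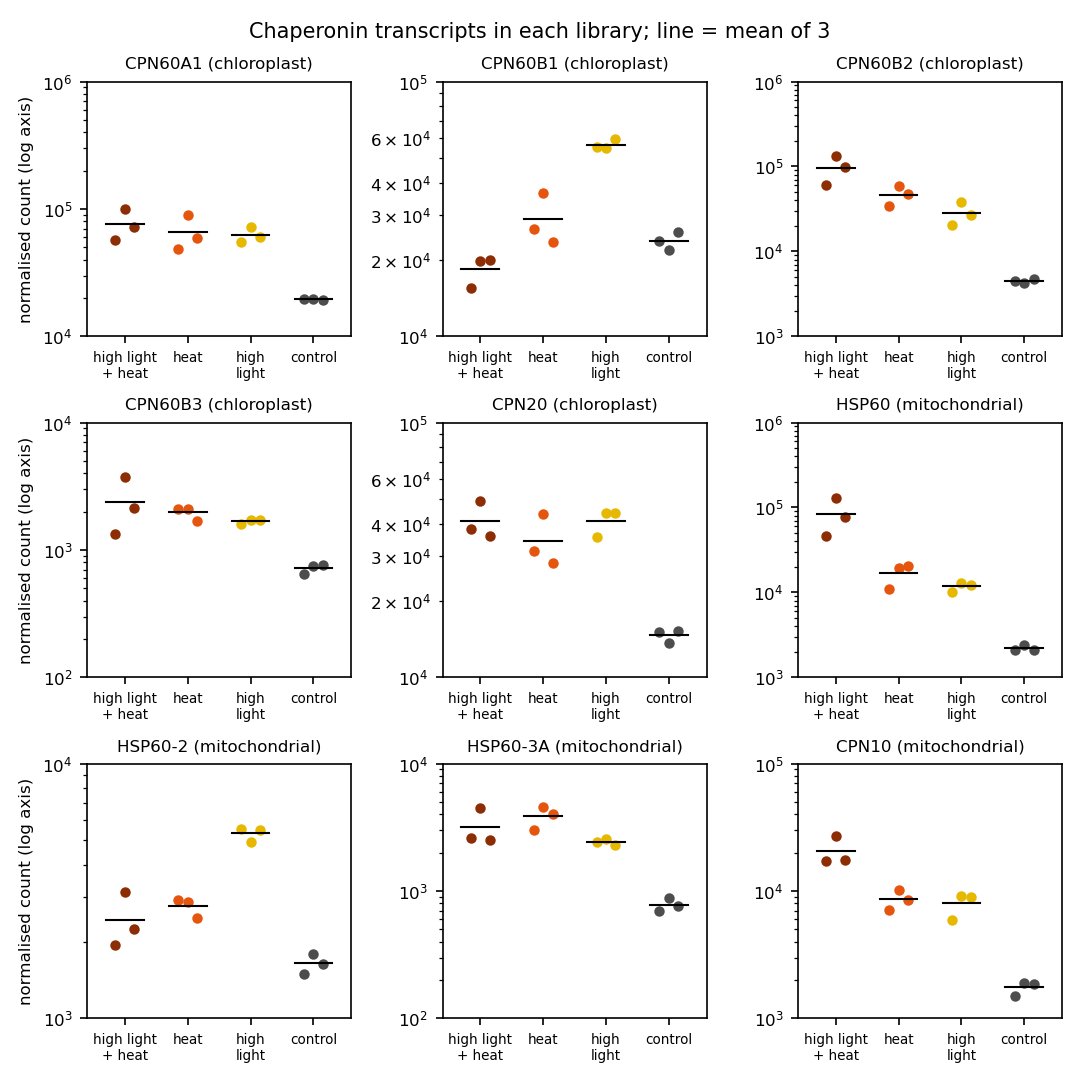
Normalised counts of the 9 chaperonin genes on log axes, with 1 point per library and a line at the mean of 3, in the combination, heat, high light and control from left to right. In 8 of the panels the 3 control libraries are below every stressed library. Of all tested genes, 67.0% in the combination, 60.8% in heat and 62.0% in high light did not overlap with control, in one direction or the other. Between stresses the shares were 63.4% for the combination against high light, 54.1% for the combination against heat and 58.9% for heat against high light. These shares are the base for the separations given below. CPN60B1 and HSP60-2 are highest in high light, and CPN60B1 is lower in each combination library than in each control library.

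CPN60A1 (AT2G28000), the alpha subunit of the chloroplast barrel, had 56784, 100177 and 72006 normalised counts in the combination, 48111, 90125 and 58610 in heat, 55358, 72521 and 59810 in high light, and 19773, 19563 and 19450 in control. Every stressed library lay above every control library, and the 3 stresses overlapped one another. The log2 change against control was 1.92 ± 0.27 in the combination (SE; limma adjusted p = 7.76e-05), 1.69 ± 0.27 in heat (limma adjusted p = 0.000323) and 1.67 ± 0.27 in high light (limma adjusted p = 0.000422). Against the single stresses the combination was not called, at 0.23 ± 0.27 against heat (limma adjusted p = 0.486) and 0.26 ± 0.27 against high light (limma adjusted p = 0.434). With library totals both values turned negative, at -0.64 in each (limma adjusted p = 0.0141 and 0.0126).

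The 3 beta genes are close copies. CPN60B1 and CPN60B2 share 93.3% of 596 aligned residues and 88.1% of coding bases, and CPN60B3 shares 87.1% of residues with each, while CPN60A1 shares 48.7% to 49.9% with the beta genes. Of the 1754 stretches of 50 coding bases in CPN60B1, 10 occur in CPN60B2 and 0 in CPN60B3, so most reads of that length would have 1 best match; how the authors treated reads with several matches is not given in the sources used here. The longest run common to the CPN60B1 and CPN60B2 coding sequences is 59 bases, shown here because reads lying within it cannot tell the pair apart. It lies within 1 exon of each gene, at chr1:20718033-20718091 on the minus strand in CPN60B1 and at chr3:4390244-4390302 on the plus strand in CPN60B2 (TAIR10.1, from RefSeq).
CPN60B1 and CPN60B2 shared run: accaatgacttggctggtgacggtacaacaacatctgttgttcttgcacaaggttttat

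CPN60B1 (AT1G55490), the most abundant beta transcript of control leaves per kb of coding length, was higher than control in high light. It had 15444, 19732 and 19981 normalised counts in the combination, 26471, 36630 and 23518 in heat, 55294, 54608 and 59543 in high light, and 23640, 21866 and 25711 in control. High light stood above all others, heat overlapped control, and the combination lay below control without overlap, a separation seen in 67.0% of all tested genes in one direction or the other. Its log2 change was -0.38 ± 0.2 in the combination (limma adjusted p = 0.125), 0.26 ± 0.2 in heat (limma adjusted p = 0.303) and 1.25 ± 0.2 in high light (limma adjusted p = 0.000395). Under upper-quartile scaling the combination was called lower than control, at -0.56 (limma adjusted p = 0.0227), and with library totals at -1.33 (limma adjusted p = 3.36e-05). ZKT (AT1G55480, mean 8536 normalised counts) overlaps it by 49 bases on the opposite strand.

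CPN60B2 (AT3G13470), the close copy, had 60063, 132642 and 98462 normalised counts in the combination, 34038, 58340 and 47772 in heat, 20628, 38596 and 26824 in high light, and 4434, 4211 and 4670 in control. The combination stood highest, without overlap with the other groups, heat and high light overlapped, and control was lowest. The log2 change was 4.38 ± 0.31 in the combination (20.8-fold; limma adjusted p = 6.94e-07), 3.36 ± 0.31 in heat (10.3-fold; limma adjusted p = 9.07e-06) and 2.64 ± 0.31 in high light (6.25-fold; limma adjusted p = 3.89e-05). An overlapping gene on the opposite strand, AT3G13480, shares 553 bases with it and averaged 524 normalised counts over all libraries, against 44224 for CPN60B2; the strand used in counting is not given in the sources used here.

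The make-up of the beta transcripts differed most between the combination and control. Per kb of coding length, CPN60B2 made up 81.7% ± 3.39 of the summed level of the 3 beta genes in the combination, 60.1% ± 5.54 in heat, 32.7% ± 7.28 in high light and 15.5% ± 0.359 in control (SD, n = 3 each). CPN60B1 made up 16.3% ± 3.71, 37.3% ± 5.03, 65.3% ± 7.15 and 82.0% ± 0.536 in those groups. The ratio of CPN60B2 to CPN60B1 per kb was 3.92, 6.77 and 4.96 in the combination, 1.29, 1.6 and 2.04 in heat, 0.376, 0.712 and 0.454 in high light, and 0.189, 0.194 and 0.183 in control. The 4 groups did not overlap in this ratio, which compares genes within a library and so does not depend on the size factors. The sum of the beta genes over CPN60A1, per kb was 1.5 ± 0.16 in the combination, 1.18 ± 0.114 in heat, 1.36 ± 0.08 in high light and 1.44 ± 0.114 in control.

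**Figure D2:**
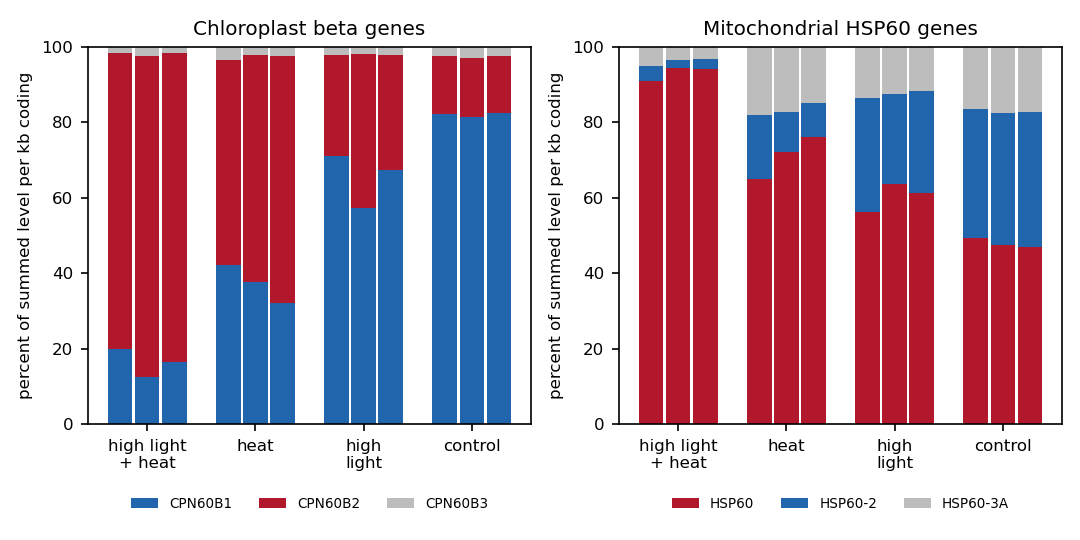
Make-up of the chloroplast beta genes (left) and the mitochondrial HSP60 genes (right), as percent of their summed normalised count per kb of coding length, with 1 bar per library. CPN60B2 holds 78.3% to 85.0% of the beta total in the combination and 15.1% to 15.8% in control, and HSP60 holds 91.1% to 94.4% of its total in the combination and 47.0% to 49.3% in control.

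CPN60B3 (AT5G56500), the beta subunit with the lowest level, stayed at 1.95% to 2.63% of the beta total per kb on average in all groups. It had 1326, 3721 and 2130 normalised counts in the combination, 2111, 2108 and 1701 in heat, 1607, 1717 and 1726 in high light, and 644, 743 and 767 in control. The stresses overlapped one another and lay above control. Its log2 change was 1.61 ± 0.28 in the combination (limma adjusted p = 0.000335), 1.45 ± 0.28 in heat (limma adjusted p = 0.00105) and 1.23 ± 0.28 in high light (limma adjusted p = 0.00394). The change against heat was 0.16, and it was -0.22 without combination library 2 and 0.52 without combination library 1.

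The bases before the annotated start are printed for CPN60B2 and CPN60B1, since the pair encodes nearly the same protein and responded differently. Each run is the 250 bases before the start, read along the gene's own strand in TAIR10.1 (RefSeq), and capitals mark 2 facing units of a heat shock element, the binding site of heat shock factors, in the form GAANNTTC or TTCNNGAA.
CPN60B2, chr3:4388965-4389214, plus strand: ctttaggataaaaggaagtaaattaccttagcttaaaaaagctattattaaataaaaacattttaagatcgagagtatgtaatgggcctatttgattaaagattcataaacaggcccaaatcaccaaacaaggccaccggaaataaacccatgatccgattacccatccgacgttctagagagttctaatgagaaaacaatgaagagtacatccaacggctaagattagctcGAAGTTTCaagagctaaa
CPN60B1, chr1:20719262-20719511, minus strand: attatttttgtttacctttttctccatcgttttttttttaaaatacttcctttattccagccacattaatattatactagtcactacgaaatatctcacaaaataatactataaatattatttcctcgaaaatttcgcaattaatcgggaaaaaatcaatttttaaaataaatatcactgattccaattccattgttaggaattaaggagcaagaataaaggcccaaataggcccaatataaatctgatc
The capitals of CPN60B2 begin 18 bases before the start, and neither form occurs in the printed bases of CPN60B1. In windows of 250 bases before to 50 bases after the start, searched on both strands, 4 of the 9 members hold such a pair of units (CPN60A1, CPN60B2, CPN20 and HSP60-3A), against 19.3% of 27443 promoters of the reference. The longer form of 3 units, GAANNTTCNNGAA or TTCNNGAANNTTC, which contains the shorter ones, is in 0 of the 9 members and in 0.481% of all promoters. The G-box CACGTG is in CPN60B3 alone among the members, at 2 positions, and in 7.68% of all promoters. Of the 3 members with the largest changes in the combination, CPN60B2 holds a pair of units and HSP60 and CPN10 do not. A match is a description of these letters and not of bound sites, and its absence says only that these letters are not in this window. Any link between these letters and the levels was not tested.

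CPN20 (AT5G20720), the lid of the chloroplast barrel, is in plants a fusion of a pair of CPN10-like domains; the first 126 and the last 127 residues share 40.4% of aligned residues with each other, and the last 127 share 38.5% with mitochondrial CPN10. It had 38278, 49085 and 35781 normalised counts in the combination, 31245, 43720 and 27989 in heat, 35460, 44184 and 44021 in high light, and 15034, 13640 and 15235 in control. All stressed libraries lay above control and the 3 stresses overlapped. The log2 change was 1.48 ± 0.21 in the combination (limma adjusted p = 9.22e-05), 1.2 ± 0.21 in heat (limma adjusted p = 0.00063) and 1.49 ± 0.21 in high light (limma adjusted p = 0.000169). Per kb, the ratio of CPN20 to the summed barrel genes was 0.517 ± 0.132 in the combination, 0.567 ± 0.0835 in heat, 0.646 ± 0.044 in high light and 0.707 ± 0.0188 in control. Each combination and heat library lay below each control library in this ratio, which was not tested. On the opposite strand NPH4 (AT5G20730, mean 1333 normalised counts) overlaps CPN20 by 254 bases.

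HSP60 (AT3G23990), the main barrel subunit of mitochondria, showed the largest change of the 9 members in the combination. It had 46499, 128297 and 77341 normalised counts in the combination, 11006, 19309 and 20712 in heat, 10178, 13042 and 12186 in high light, and 2125, 2409 and 2119 in control. Combination libraries stood above all others, heat and high light overlapped, and control was lowest. Its log2 change was 5.12 ± 0.32 in the combination (34.9-fold; limma adjusted p = 4.01e-07), 2.89 ± 0.32 in heat (7.4-fold; limma adjusted p = 3.06e-05) and 2.41 ± 0.32 in high light (5.3-fold; limma adjusted p = 0.000109). By rank of mean level among the 19309 tested genes, HSP60 was 90th in the combination, 208th in heat, 368th in high light and 2221st in control.

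HSP60-2 (AT2G33210), a second HSP60 gene that shares 87.2% of 577 aligned residues with HSP60, was highest in high light. It had 1943, 3127 and 2232 normalised counts in the combination, 2912, 2868 and 2485 in heat, 5557, 4936 and 5478 in high light, and 1498, 1790 and 1637 in control. High light stood above all others, the combination and heat overlapped, and control was lowest. The log2 change was 0.54 ± 0.17 in the combination (limma adjusted p = 0.0166), 0.75 ± 0.17 in heat (limma adjusted p = 0.00363) and 1.7 ± 0.17 in high light (limma adjusted p = 1.5e-05). The call in the combination was lost without combination library 2 (0.35, limma adjusted p = 0.0783), without control library 1 (0.48, limma adjusted p = 0.0666) and with upper-quartile scaling (0.35, limma adjusted p = 0.103), and the sign turned with library totals (-0.41, limma adjusted p = 0.0655).

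HSP60-3A (AT3G13860), the more distant copy with 70.8% of residues shared with HSP60, had 2614, 4480 and 2510 normalised counts in the combination, 3030, 4574 and 4009 in heat, 2421, 2550 and 2291 in high light, and 699, 876 and 768 in control. All stressed libraries lay above control, and heat lay above high light without overlap. Heat and high light were apart in 58.9% of all tested genes, in one direction or the other. Its log2 change was 1.99 ± 0.22 in the combination (limma adjusted p = 1.36e-05), 2.29 ± 0.22 in heat (limma adjusted p = 1.2e-05) and 1.64 ± 0.22 in high light (limma adjusted p = 0.00011). Among the HSP60 genes per kb, HSP60 made up 93.2% ± 1.87 in the combination, 71.1% ± 5.65 in heat, 60.4% ± 3.79 in high light and 48.0% ± 1.21 in control. HSP60-2 made up 2.9% ± 0.766, 12.2% ± 4.21, 27.1% ± 3.26 and 35.0% ± 0.761 in those groups, and the 4 groups did not overlap in the share of HSP60.

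CPN10 (AT1G14980), the lid of the mitochondrial barrel, was, like HSP60, highest in the combination. It had 17046, 26887 and 17612 normalised counts in the combination, 7125, 10224 and 8534 in heat, 5865, 9145 and 8920 in high light, and 1505, 1905 and 1865 in control. Combination libraries stood above all others, heat and high light overlapped, and control was lowest. The log2 change was 3.52 ± 0.23 in the combination (limma adjusted p = 4.95e-07), 2.29 ± 0.23 in heat (limma adjusted p = 1.57e-05) and 2.16 ± 0.23 in high light (limma adjusted p = 1.98e-05). Its ratio to the summed HSP60 genes per kb was 1.45 ± 0.433 in the combination, 2.17 ± 0.317 in heat, 2.37 ± 0.416 in high light and 2.22 ± 0.188 in control, with overlap between the combination and the other stresses. Each combination library lay below each control library in this ratio, which was not tested. Its size within a group depends on dividing by coding length, which is 297 bases for CPN10, and is no measure of lids per barrel.

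**Figure D3:**
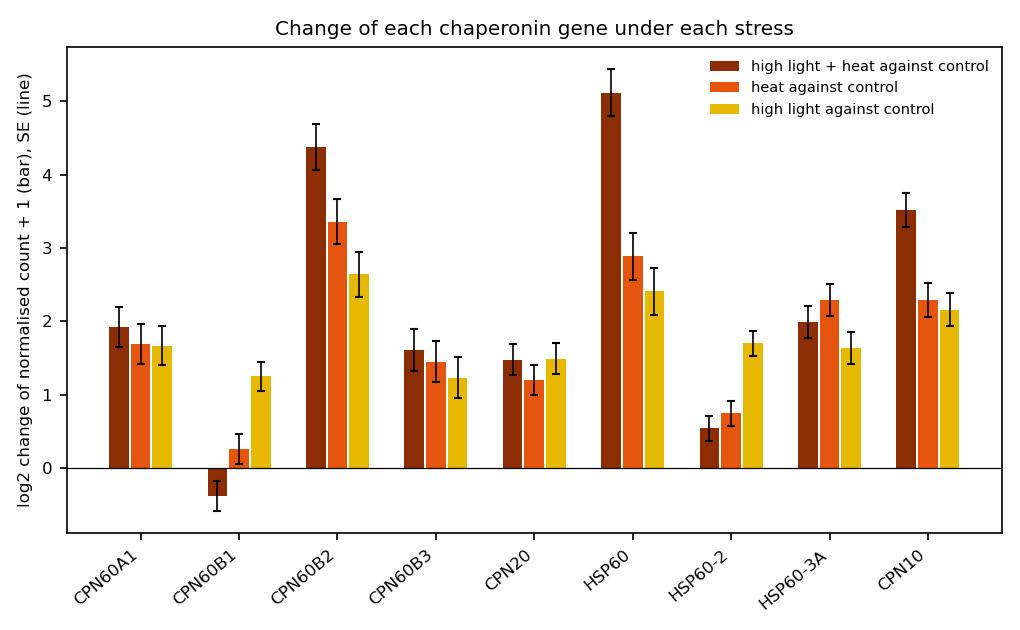
Log2 change of each chaperonin gene (bar) with its SE (line) in the combination, heat and high light against control. HSP60 (5.12), CPN60B2 (4.38) and CPN10 (3.52) have the tallest bars in the combination, and CPN60B1 is the gene with a bar below 0, at -0.38.

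Per kb of coding length the order of the members also differed between groups. In the combination CPN10 (69074 ± 18605), CPN60B2 (54191 ± 20274), CPN20 (53869 ± 9280), HSP60 (48469 ± 23823) and CPN60A1 (43340 ± 12502) led with overlapping spreads (SD, n = 3 each), followed by CPN60B1 at 10197 ± 1415. In control CPN20 (19208 ± 1140) led, CPN60B1 (13167 ± 1067) and CPN60A1 (11127 ± 93.2) came next, and CPN10 (5920 ± 741), CPN60B2 (2478 ± 128) and HSP60 (1279 ± 95.5) stood below them. The summed barrel genes of the chloroplast exceeded those of the mitochondrion 2.22 ± 0.361 times per kb in the combination, 5.97 ± 1.11 times in heat, 7.44 ± 0.449 times in high light and 10.3 ± 1.16 times in control. The combination did not overlap with any other group in this ratio.

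Set directly against each single stress, the combination divided the members. Against high light, 3 of 9 were higher (HSP60, CPN60B2 and CPN10) and 2 lower (CPN60B1 and HSP60-2), while 28.1% of all genes were called higher and 29.3% lower. HSP60 changed by 2.72 ± 0.32 (limma adjusted p = 2.62e-05), CPN60B2 by 1.73 ± 0.31 (limma adjusted p = 0.000453), CPN10 by 1.36 ± 0.23 (limma adjusted p = 0.000312), CPN60B1 by -1.63 ± 0.2 (limma adjusted p = 3.41e-05) and HSP60-2 by -1.16 ± 0.17 (limma adjusted p = 0.00013). Against heat the same 3 genes were higher and CPN60B1 lower (27.9% higher and 27% lower over all genes). HSP60 changed by 2.24 ± 0.32 (limma adjusted p = 0.000168), CPN10 by 1.23 ± 0.23 (limma adjusted p = 0.000787), CPN60B2 by 1.02 ± 0.31 (limma adjusted p = 0.0143) and CPN60B1 by -0.63 ± 0.2 (limma adjusted p = 0.0177). The CPN60B2 call against heat ended without combination library 2 (0.75, limma adjusted p = 0.07), and that of CPN60B1 without heat library 2 (-0.45, limma adjusted p = 0.0705) or combination library 1 (-0.51, limma adjusted p = 0.0714). With library totals CPN10 was no longer called against heat (0.36, limma adjusted p = 0.124) or high light (0.46, limma adjusted p = 0.0527), nor CPN60B2 against heat (0.15, limma adjusted p = 0.619). The count against heat was then 1 higher and 6 lower, with CPN60A1 (-0.64), CPN60B3 (-0.71), CPN20 (-0.6), HSP60-2 (-1.07) and HSP60-3A (-1.18) called lower beside CPN60B1, and that against high light was 2 higher and 5 lower. In a fit of the compared groups alone, CPN60B2 (limma adjusted p = 0.0905) and CPN60B1 (limma adjusted p = 0.111) were not called against heat. Without combination library 1 CPN60B3 was called higher than in high light (0.74, limma adjusted p = 0.0106), and without combination library 2 HSP60-3A was called lower than in heat (-0.58, limma adjusted p = 0.0252).

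Heat against high light, a comparison added after the data had been seen, gave 1 member higher (HSP60-3A, 0.66 ± 0.22, limma adjusted p = 0.0256) and 2 lower, CPN60B1 at -0.99 ± 0.2 (limma adjusted p = 0.00157) and HSP60-2 at -0.95 ± 0.17 (limma adjusted p = 0.00077). Over all genes 24.5% were higher and 24.9% lower. The HSP60-3A call ended without high light library 1 or 3 or heat library 2 or 3. CPN60B2 was not called (0.72 ± 0.31, limma adjusted p = 0.0707) but heat was above high light within each of the 3 same-numbered pairs. It was called with the replicate number as a block (0.72, limma adjusted p = 0.0268), with DESeq2 (0.7, adjusted p = 0.0454), with library totals (0.69, limma adjusted p = 0.0371) and in 3 of the 12 fits that left out 1 library.

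For 8 of the 9 members the effect of both stresses together was smaller on the log2 scale than the sum of the single effects. The interaction, which is the change of heat under high light minus the change of heat alone, was called lower for 8 members and higher for 0, against 23.2% lower and 23% higher over all genes. It was -1.94 ± 0.31 for HSP60-3A (limma adjusted p = 0.000401), -1.9 ± 0.25 for HSP60-2 (limma adjusted p = 0.000101), -1.89 ± 0.29 for CPN60B1 (limma adjusted p = 0.00027), -1.63 ± 0.44 for CPN60B2 (limma adjusted p = 0.00921) and -1.44 ± 0.38 for CPN60A1 (limma adjusted p = 0.00877). CPN20 had -1.22 ± 0.3 (limma adjusted p = 0.00579), CPN60B3 -1.07 ± 0.39 (limma adjusted p = 0.0397) and CPN10 -0.93 ± 0.33 (limma adjusted p = 0.0337). HSP60 was not called, at -0.17 ± 0.46 (limma adjusted p = 0.781), but was called lower with library totals (-0.99, limma adjusted p = 0.0286) and without heat library 1 and combination library 2 together (-0.82, limma adjusted p = 0.0479). The calls of CPN60B3 and CPN10 were lost in 10 and 7 of the 12 fits that left out 1 library.

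On the scale of normalised counts the mean of HSP60 in the combination was 84046, which is 3.16 times the 26593 given by adding both single increases to the control mean, and all 3 libraries exceeded it. CPN10 stood at 20515 against 14846 (1.38 times, 3 of 3 libraries above) and CPN60B2 at 97056 against 70961 (1.37 times, 2 of 3 above). The other 6 members stood below that sum on average, from 0.298 times for CPN60B1 to 0.814 times for CPN60B3. These ratios were not tested and move with the scaling of the combination libraries.

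**Figure D4:**
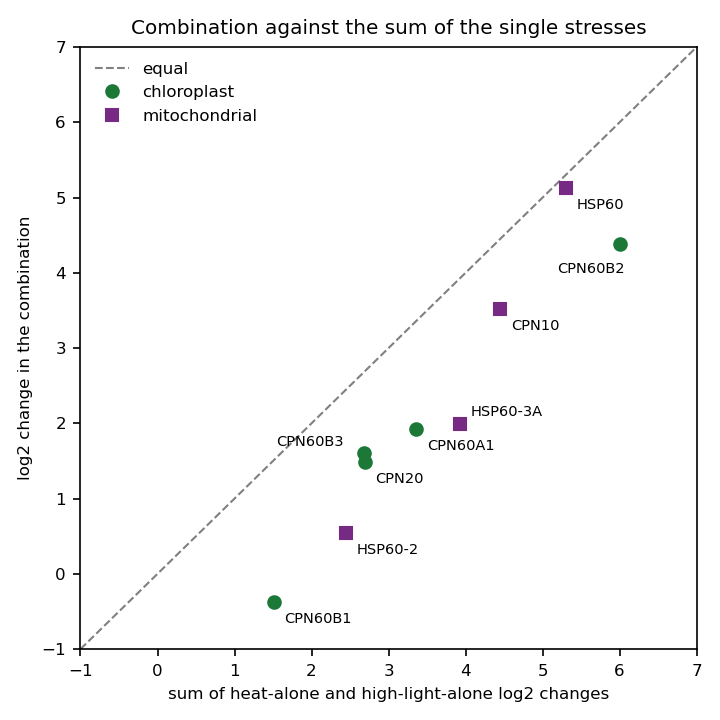
Log2 change in the combination against the sum of the heat-alone and high-light-alone changes for each chaperonin gene (circles, chloroplast; squares, mitochondrial), with a dashed line where both are equal. HSP60 lies close to the line (5.12 against 5.3) and the other genes below it, such as CPN60B1 (-0.38 against 1.51).

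Other organellar chaperonin genes, which were not members, had 1 of 5 called higher and 1 lower in the combination, 3 and 1 in heat, and 3 and 0 in high light. In the combination 0 were higher and 4 lower with library totals (median -0.9), and 0 and 1 with TMM or upper-quartile scaling. Over all tested genes 29.8% were called higher and 29.7% lower in the combination as deposited. These shares were 24.6% and 24.8% in heat and 18.1% and 16.6% in high light. They are also the base for the counts in the lists below. CPN60A2 (AT5G18820), a second alpha gene, changed by -0.13 ± 0.21 in the combination (limma adjusted p = 0.608), 1.74 ± 0.21 in heat (limma adjusted p = 5.57e-05) and 2.16 ± 0.21 in high light (limma adjusted p = 1.23e-05). CPN60B4 (AT1G26230), a divergent beta gene known for folding a subunit of the NDH complex, changed by -1.35 ± 0.21, 0.44 ± 0.21 and 0.96 ± 0.21, called in the combination and in high light. The GroES-like gene AT1G23100 changed by 0.05 ± 0.26 in the combination, 1.07 ± 0.26 in heat and 2.72 ± 0.26 in high light, the last 2 being called. CHL-CPN10 (AT2G44650), a short chloroplast lid gene, was called lower in heat, at -0.97 ± 0.16 (limma adjusted p = 0.000497). The GroES-like gene AT3G60210 was called higher in heat (1.17 ± 0.19) and in the combination (0.53 ± 0.19, limma adjusted p = 0.0319), and its call in the combination was lost under TMM, upper-quartile and library-total scaling (limma adjusted p = 0.0585, 0.145 and 0.121). The interaction was called lower for CPN60A2 (-4.03 ± 0.3), AT1G23100 (-3.74 ± 0.36), CPN60B4 (-2.74 ± 0.3) and AT3G60210 (-1.17 ± 0.27), and higher for CHL-CPN10 (1.13 ± 0.23).

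The cytosolic chaperonin CCT, which folds actin and tubulin, had smaller changes. All 9 of its genes were called higher in the combination (median log2 change 0.96), 2 in heat (0.12) and 5 in high light (0.43), and 0 were called lower. In the combination CCT8 changed by 1.41 ± 0.18 (limma adjusted p = 3.38e-05), CCT7 by 1.08 ± 0.15 (limma adjusted p = 7.09e-05) and CCT3 by 1.07 ± 0.16 (limma adjusted p = 0.000107). With library totals 1 CCT gene was called higher and 1 lower in the combination, with a median of 0.01, so their direction there rests on the scaling. Of the 6 prefoldin genes, whose complex hands clients to CCT, 4 were higher in the combination, 3 in heat and 2 in high light, and 0, 2 and 0 were lower. PFD5 (0.95 ± 0.2), PFD3 (0.74 ± 0.16) and PFD2 (0.68 ± 0.14) changed most in the combination, and with library totals 0 were higher and 2 lower.

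Among the 6 genes for Rubisco assembly chaperones, which act on the large subunit after the chaperonin, 3 were higher and 3 lower in the combination, 0 and 4 in heat, and 3 and 1 in high light. The shares over all tested genes were 29.8% and 29.7%, 24.6% and 24.8%, and 18.1% and 16.6%. RBCX1 had 215, 189 and 114 normalised counts in the combination, 1657, 1689 and 765 in heat, 1583, 1549 and 1870 in high light, and 3937, 3165 and 4325 in control. It was lower in every stressed library than in every control library, with a log2 change of -4.5 ± 0.3 in the combination (limma adjusted p = 5.22e-07). RBCX2 changed by 1.74 ± 0.27 (limma adjusted p = 0.000149) and AT5G28500, a rubisco accumulation factor-like gene, by -1.03 ± 0.16 (limma adjusted p = 0.000136) in the combination. With library totals the list split into 1 higher and 4 lower.

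In the plastid stroma list of 11 folding and proteolysis genes, 8 were higher in the combination, 8 in heat and 7 in high light, and 0, 1 and 0 were lower. With library totals 5 were higher and 3 lower in the combination (median 0.29, against 1.24 as deposited), and with upper-quartile scaling 7 and 1. The small heat shock protein HSP21 changed by 14.81 ± 1.07 in the combination, its control mean being 4.24 normalised counts, the disaggregase CLPB3 by 6.51 ± 0.61 and the stromal chaperone HSP90C by 2.23 ± 0.25 (limma adjusted p = 8.04e-07, 4.07e-06 and 1.34e-05). In the mitochondrial matrix list of 12 genes, 11 were higher in the combination, 10 in heat and 9 in high light, and 0 were lower in these. With library totals 9 were higher and 2 lower in the combination (median 1.47, against 2.42 as deposited), and with upper-quartile scaling 1 was lower in the combination and 1 in heat. The small heat shock proteins HSP23.6 (15.35 ± 1.24) and AT5G51440 (12.9 ± 1.15) and mtHSC70-2 (7.49 ± 0.59) changed most in the combination (limma adjusted p = 1.44e-06, 2.9e-06 and 1.19e-06). Where control counts are near 0, the size of such a change depends on the 1 added before taking logs.

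**Figure D5:**
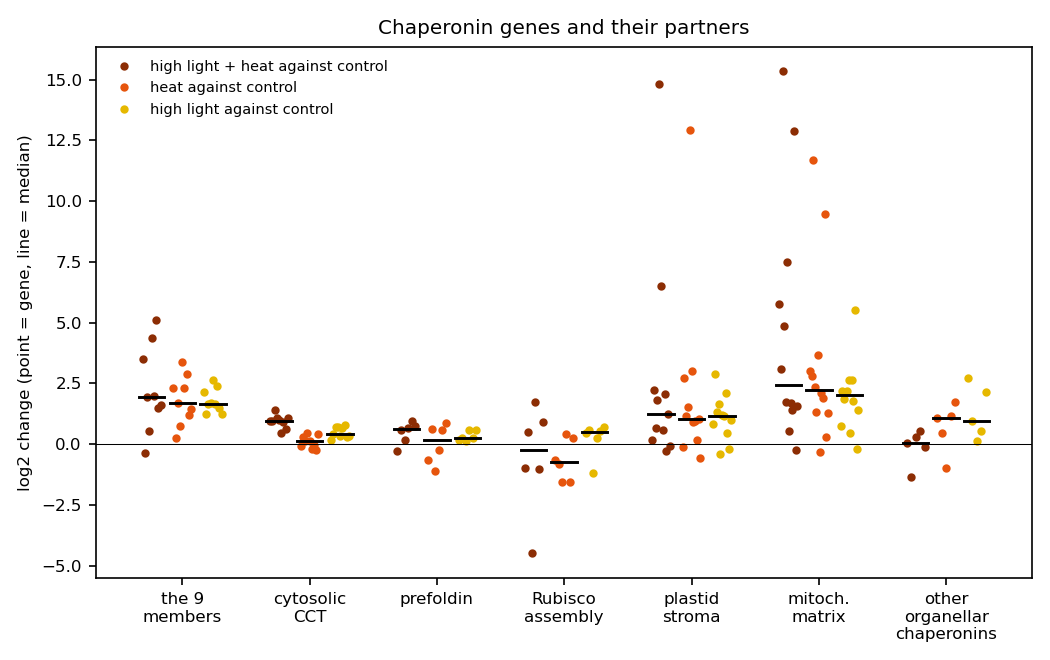
Log2 change of each gene (point) and list median (line) in the combination, heat and high light against control, for the 9 members and 6 lists of related genes. The 9 members have medians of 1.92, 1.69 and 1.67, above those of the CCT genes (0.96, 0.12 and 0.43) in the same comparisons. They are below those of the mitochondrial matrix list (2.42, 2.23 and 2.01).

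Likeness over the 12 libraries is given as a description, with Pearson's r of log2(normalised count + 1). The libraries fall into 4 groups, so r mostly follows the group means. Within the members, CPN60B2 was most like CPN10 (0.983), HSP60 most like CPN10 (0.977), CPN60A1 most like CPN20 (0.965), and CPN60B1 most like HSP60-2 (0.828), while CPN60B1 and CPN60B2 gave -0.0681. Outside the members, only tested genes with a symbol in the reference annotation were ranked, so genes without one may be more alike. Among the ranked genes, the one most like HSP60 was TPR10 (0.996), followed by the mitochondrial nucleotide exchange factor AR192, also called MGE2 (0.992), and FUS6 (0.991). CPN60A1 was most like the stromal HSP70 gene cpHsc70-1 (0.988), then CDKC2 (0.975) and Hsp89.1 (0.962). For CPN60B1 these were CAF1 (0.973), emb2746 (0.96) and OSB3 (0.959), and for HSP60-2 they were CPZ (0.986), WDR55 (0.977) and ABCC2 (0.973). CPN60B2 and CPN10 shared cPT4 (0.982 for each) and DIP2 (0.978 and 0.986), with HD2C (0.979) for CPN60B2 and FD1 (0.987) for CPN10. CPN20 had AKR4C10 (0.979), cpHsc70-1 (0.966) and EDA14 (0.962), CPN60B3 had Hsp89.1 (0.977), CYP71 (0.947) and ATG18B (0.935), and HSP60-3A had PHB2 (0.983), TPX1 (0.961) and Hsp89.1 (0.96).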

How the data were processed

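Poly(A) RNA-seq of leaves was deposited as 1 table of normalised counts. The submitters' processing notes name the tools FastQC 0.11.7, STAR 2.4.0.1 and DESeq2 1.20.0 and the build TAIR10. How reads were counted, on which strand and with which annotation is not given in the sources used here. In the authors' signal values each library's read counts stand divided by a size factor of its own. Whole reads were recovered for 100.0% of values (within 0.001 of a whole number).

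Genes with a mean of at least 10 were tested, 19309 in all, as log2(normalised count + 1) with limma-trend (limma 3.58.1, R 4.3.3) in 1 fit of all 12 libraries, two-sided, with Benjamini-Hochberg adjustment per comparison and a threshold of 0.05. The scale understates changes of genes with few reads. All 9 members are named, with at most 3 called genes per list by size of change in the combination, every called gene of the other organellar chaperonins, and the 3 genes most like each member. These last were taken only from tested genes outside the members with a symbol in the reference annotation. Same-numbered libraries deviated together in high light with control (r of 0.159, 0.157 and 0.307) and in heat with high light (0.147, 0.152 and 0.151). The main fit took no pairs in any comparison, so its p-values are unpaired. The replicate block, an alternative, was fitted in every comparison. Members and lists were chosen with earlier results of these data known. Sequences come from RefSeq TAIR10.1, matched by locus. Alternatives were pseudocounts of 0.5 and 10, no filter, a stricter filter at 50, scaling by TMM or upper quartile, the count models of edgeR 4.0.16 and DESeq2 1.42.0, fits of the compared groups alone, a replicate block and each library left out in turn. Library totals, the joint removal of heat library 1 and combination library 2, and heat against high light were added after the data were seen.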

Additional observations from a re-analysis of the deposited data

Results flagged for a closer look

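For 8 members the change with heat differed between leaves in high light and leaves without it, by the test of that difference itself (limma, adjusted over all genes). The change of heat under high light minus the change of heat alone, on the log2 scale, was -0.93 for CPN10, -1.89 for CPN60B1, -1.22 for CPN20, -1.07 for CPN60B3, -1.63 for CPN60B2, -1.94 for HSP60-3A, -1.44 for CPN60A1 and -1.9 for HSP60-2. Over all tested genes 23.2% were called in the same direction. When each of the 12 libraries was left out in turn, CPN60B3 lost its call in 10 fits and CPN10 in 7. CPN60B3 was also not called by edgeR or DESeq2 (adjusted p = 0.0654 and 0.0505).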

How the results depend on the processing

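Of the 63 member values, all kept their direction and side of the threshold with pseudocounts of 0.5 and 10, no filter, a filter at 50 and TMM. The change that mattered most was scaling by library totals, which moved the median of all genes by -0.94, -0.89, -0.86 and -0.81 in the combination against control, high light and heat and in the interaction. It raised the member calls in the combination against heat to 7 (1 higher, 6 lower) from 4, and in the combination against high light to 2 higher and 5 lower. Of the called genes, 13.2% were then higher in the combination against control, against 50.1% as deposited, 14.3% against 48.9% in the combination against high light, 12.5% against 50.8% in the combination against heat and 17.1% against 49.8% in the interaction. Signs turned under it for HSP60-2 in the combination against control (-0.41), for CPN60A1 (-0.64), CPN60B3 (-0.52) and HSP60-3A (-0.55) in the combination against high light, for CPN60A1 (-0.64), CPN60B3 (-0.71) and CPN20 (-0.6) in the combination against heat, and for CPN60A1 in heat against high light (-0.0027). HSP60 then had a called interaction of -0.99. As shares of reads, the summed fold in the combination was 1.89 for chloroplast and 8.61 for mitochondrial members. Fitting only the compared groups gave 2 member calls in the combination against heat and 10300 called genes in high light against control, against 6701. Without heat library 1 and combination library 2, heat against high light had 5 member calls, and signs turned for CPN60B3 against high light (-0.0016) and heat (-0.17) and for CPN60A1 against heat (-0.18, with 0.48 as the highest value of CPN60A1 without 1 library) in the combination, while HSP60 had a called interaction of -0.82 (adjusted p = 0.0479). Upper-quartile scaling turned CPN60A1 in heat against high light (-0.07).

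Leaving out each library in turn gave 7 to 8 member calls in the combination against control, 8 to 8 in heat, 9 to 9 in high light, 5 to 6 in the combination against high light, 3 to 4 against heat, 6 to 8 in the interaction and 2 to 4 in heat against high light. Values near 0 turned sign: CPN20 (-0.15 to 0.08) and CPN60B3 (-0.0016 to 0.74) in the combination against high light, CPN60B3 (-0.22 to 0.52) in the combination against heat, HSP60 (-0.53 to 0.2) in the interaction, and CPN60A1 (-0.23 to 0.23) and CPN10 (-0.08 to 0.26) in heat against high light. On recovered reads, edgeR called 11356 genes and DESeq2 11786 in the combination against control, against 11476, and the CPN60B3 interaction passed in neither (adjusted p = 0.0654 and 0.0505).

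With the replicate number as a block, CPN60B2 in heat against high light was called (0.72, adjusted p = 0.0268), and no other member call changed. Over the 18 same-numbered pairs r was -0.0757 to 0.307, with 7 over 0.1. Outside high light against control and heat against high light, values within pairs were not described.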
